A study of Homo sapiens with 9 samples.

Results

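The response of HCT116 cells to 1 siRNA against ORM1, siRNA 2 of the study, was described gene by gene against a control siRNA. Members were all genes that passed a filter on low counts, 20932 of the 61806 gene identifiers in the deposited count table, measured in 3 control and 3 siRNA 2 libraries of 9 in all. The other 3 libraries came from cells given a different siRNA against the same gene, siRNA 1. HCT116 is an established human colorectal cancer cell line; per the labels the medium was McCoy's 5A with serum, Lipofectamine RNAiMax carried the siRNAs into the cells, and Trizol-isolated RNA was sequenced. All groups thus share the cell line and the medium, the control cells received a control siRNA, and the batch label of every library is Day 3. The labels give neither the siRNA sequences nor a dose, and do not say that replicates were separate cultures. The p-values therefore rest on the spread among the libraries alone, and that spread may be technical. The question was how the transcriptome differed after knockdown of ORM1 with this siRNA.

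A short interfering RNA is loaded into an Argonaute protein and guides it to transcripts with matching sequence, which are cleaved or repressed. The product of ORM1, orosomucoid 1 or alpha-1-acid glycoprotein, circulates in plasma, is made mainly by the liver and rises in the acute phase of inflammation. HCT116 cells divide fast, carry an activated beta-catenin allele, and keep a functional p53. Genes of DNA replication and mitosis, of ribosome production, of the p53 and NF-kB pathways and of adhesion are therefore among those that such a line is known to express actively.

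ORM1, the gene targeted, was lower in every siRNA 2 library than in any control library. Its level was 0.954, 0.897 and 0.894 CPM (counts scaled to a library total of 1000000) in the control libraries and 0.121, 0 and 0.171 CPM in the siRNA 2 libraries, a mean of 10.6% of control. The log2 change was −3.20 (standard error, SE, 0.90), with an adjusted p of 0.019 by the quasi-likelihood test of edgeR, Benjamini-Hochberg adjusted over all tested genes. A gene was called where this adjusted p was below 0.05. An exact two-sided permutation test of the 6 levels gave p = 0.1, the smallest value that 3 against 3 libraries allow. The call was lost without control replicate 1, 2 or 3 or siRNA 2 replicate 1, at adjusted p-values of 0.057, 0.055, 0.054 and 0.05, and the change without them was −3.17, −3.22, −3.22 and −3.38. A count of 0, as in siRNA 2 replicate 2, allows up to 3 counts, which was 0.0449 CPM in that library and covers counting error only. ORM2, a neighbouring gene that encodes the second form of the glycoprotein and is nearly identical in sequence, was at 0.575, 0.625 and 1.000 CPM in the control libraries and 0, 0.120 and 0.199 CPM under siRNA 2. Its groups did not overlap either, but its change of −2.75 (SE 1.01) did not pass the test, at an adjusted p of 0.066. How reads shared by these genes were divided is unknown.

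Of the 20932 tested genes, 2970 (14.2%) were higher and 2627 (12.6%) were lower under siRNA 2, so that 26.7% were called in one or the other direction. Most of these changes were small. The median change of the genes called higher was 1.222-fold and that of the genes called lower 1.247-fold, while the median log2 change of all tested genes was −0.004. A change of at least 1.5-fold was reached by 362 of the genes called higher and 522 of those called lower. At 2-fold or more the numbers were 101 and 211, and at 4-fold or more 29 and 62. The 3 libraries of each group did not overlap in 8209 genes (39.2%), with 4163 (19.9%) higher and 4046 (19.3%) lower under siRNA 2. Of those, 2699 were not called, and 87 genes were called although a library of one group lay within the range of the other.

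**Figure D1:**
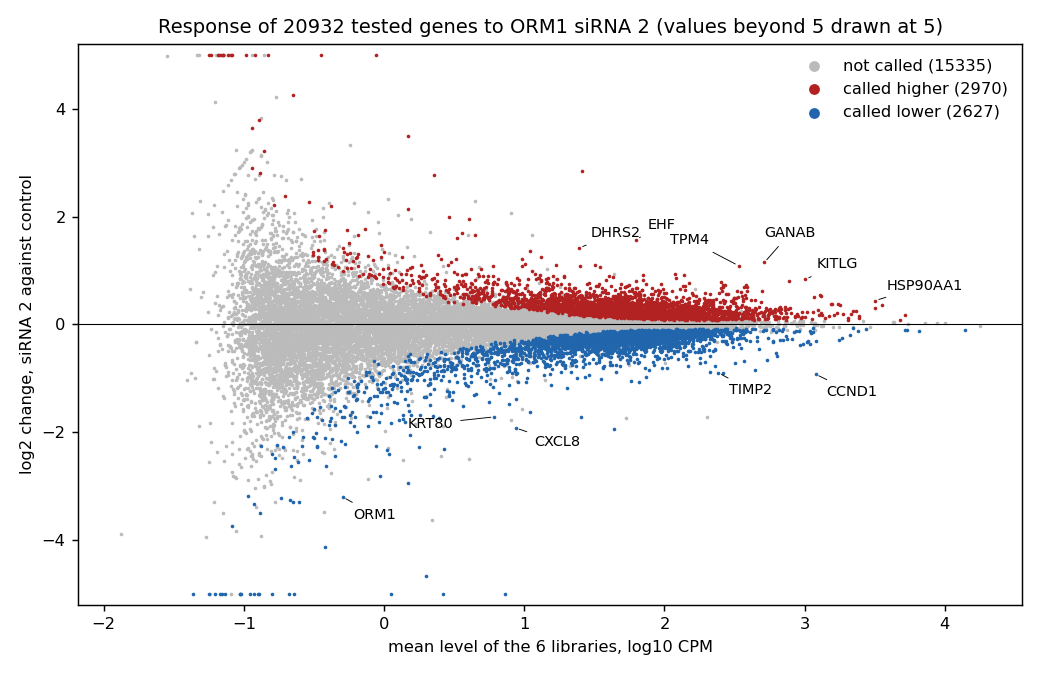
Each point is 1 of 20932 tested genes, placed by its mean level over the 3 control and 3 siRNA 2 libraries (log10 CPM) and by its log2 change under siRNA 2 against control. Red marks the 2970 genes called higher and blue the 2627 called lower. Called genes of high level lie within a narrow band around 0, and the widest changes belong to genes of low level.

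Calls were more frequent among abundant transcripts. Below a mean of 0.5 CPM 2.3% of genes were called, from 10 to 50 CPM 36.5%, and at 200 CPM or more 62.1%. In that most abundant class 41.4% of 824 genes were higher and 20.8% lower, whereas below 10 CPM lower calls were the more frequent. The median size of the log2 change over all genes, called or not, fell from 0.507 below 0.5 CPM to 0.127 at 200 CPM or more. Protein-coding genes were called in 35.6% of 14531 cases, long noncoding genes in 6.51% of 3471 and pseudogenes in 6.38% of 1818. At matched level the classes were closer, though not alike. Between 10 and 50 CPM 36.9% of protein-coding genes, 28.3% of long noncoding genes and 29.9% of pseudogenes were called. Between 2 and 10 CPM these shares were 21%, 17.3% and 11.4%, and between 0.5 and 2 CPM 10.6%, 5.16% and 2.59%. On the nuclear chromosomes the share called lay between 21.5% of the genes of chromosome 21 and 31.1% of those of chromosome 12, and of 37 mitochondrially encoded genes, tRNA and rRNA genes included, 43.2% were called, 11 higher and 5 lower. Long and abundant transcripts give more counts and thus smaller errors, so the share called in a class is also a share of what the depth could resolve.

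**Figure D2:**
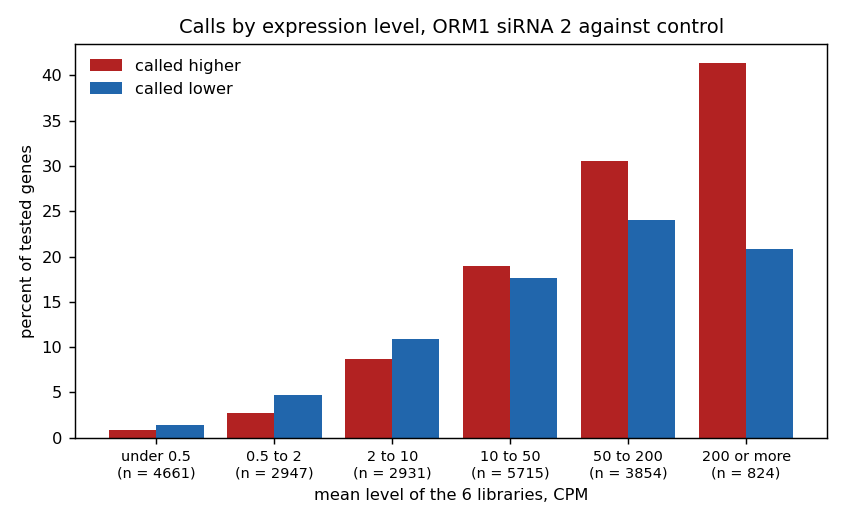
Bars give the percent of tested genes called higher (red) or lower (blue) under siRNA 2 in 6 classes of mean level, with the number of tested genes of each class in brackets. The share called higher grows with level to 41.4% at 200 CPM or more, where the share called lower, at 20.8%, is below that of the class from 50 to 200 CPM (24%).

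The depth was 61984423 to 65837173 counts in the control libraries and 66475531 to 71431723 in the siRNA 2 libraries. The share of counts on mitochondrially encoded genes was 8.34% to 8.51% in control and 8.02% to 8.09% under siRNA 2. Markers of other cell types were low, apart from the collagen gene COL1A1. The 16 hepatocyte markers, of which 6 passed the filter, summed to 4.23 to 5.27 CPM in control and 2.99 to 4.04 CPM under siRNA 2. APOB, TTR and FGB were at 0 in all control and siRNA 2 libraries. One of the hepatocyte markers, CYP2E1, was called lower, at 1.74 CPM in control and 0.346 CPM under siRNA 2 on average. The 14 leukocyte markers, of which 7 were tested, summed to 11.6 to 12.8 CPM and 7.58 to 11.2 CPM, with CD3E, CD3D and MS4A1 at 0. Among them CSF1R was called lower except without control replicate 2 or siRNA 2 replicate 1 or 3 (0.099, 0.076 and 0.079). The 15 fibroblast and endothelial markers, of which 7 were tested, summed to 57.5 to 65.6 CPM and 47.1 to 50.8 CPM. PDGFRA and CDH5 were at 0. Most of that sum was COL1A1, at 58.9, 52.6 and 50.9 CPM in the control libraries and 44.35, 42.5 and 40.8 CPM under siRNA 2, called lower. The part of such cells in any result was not tested. Of 13 tested markers of colon epithelium, 2 were higher, among them the adhesion molecule EPCAM, and the keratins KRT8, KRT18 and KRT19 were among those lower. CDX1, FABP1 and CEACAM5, which mark differentiated colonocytes, were at 0 in all control and siRNA 2 libraries. The second marker called higher was CDH1, E-cadherin, 1.07-fold, a call lost without any 1 library except control replicate 1 and siRNA 2 replicate 3 (adjusted p from 0.062 to 0.15, edgeR).

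The 15 largest rises among genes with at least 5 CPM in their higher group brought together an epithelial transcription factor, a glycoprotein-processing enzyme, cytoskeletal and kinetochore genes and several transcripts of germ cells or neurons. EHF, an ETS-family transcription factor of epithelial cells, was at 33.5, 30.2 and 31.3 CPM in the control libraries and 94.1, 96.5 and 92.3 CPM under siRNA 2, a 2.98-fold rise (log2 change 1.57, SE 0.043, adjusted p = 8.6e-10, edgeR). GANAB, the catalytic subunit of glucosidase II, which trims glucose from new glycoproteins in the endoplasmic reticulum, was at 326, 316 and 321 CPM in the control libraries and 713, 714 and 708 CPM under siRNA 2. TPM4, a tropomyosin that coats actin filaments, was at 218, 212 and 218 CPM in the control libraries and 455, 473 and 449.8 CPM under siRNA 2. Each of these genes rose at least 2-fold with no overlap and with little spread inside a group. ZW10, which brings dynein to the kinetochore in mitosis, was at 19.9, 19.4 and 21.8 CPM in the control libraries and 42.7, 45.5 and 42.8 CPM under siRNA 2. HABP4, a hyaluronan- and RNA-binding protein, was at 14.8, 16.7 and 16.8 CPM in the control libraries and 32.6, 32.8 and 37 CPM under siRNA 2. LONRF2, a ring-finger protein with a LON domain, was at 6.01, 6.94 and 6.27 CPM in the control libraries and 14, 14.4 and 13.2 CPM under siRNA 2. These changes were 2.14-fold, 2.12-fold and 2.16-fold, with adjusted p-values (edgeR) of 6.8e-08, 2.3e-06 and 3.9e-06.

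DHRS2, a short-chain dehydrogenase, was at 13.5, 13.3 and 13.5 CPM in the control libraries and 37.2, 33 and 37.6 CPM under siRNA 2. The binding protein IGFBP3, which holds insulin-like growth factors in the extracellular space, was at 6.78, 4.66 and 7.08 CPM in the control libraries and 15.1, 16.7 and 15.6 CPM under siRNA 2. VSNL1, a neuronal calcium sensor, was at 10.7, 10.3 and 11.2 CPM in the control libraries and 22.2, 22.6 and 24.1 CPM under siRNA 2. All 3 groups of values were separated from control, with rises of 2.67, 2.56 and 2.14-fold. TEX19, a germ cell gene, was at 1.89, 1.31 and 1.88 CPM in the control libraries and 5.35, 5.50 and 5.66 CPM under siRNA 2. OR51B2, which is annotated as an olfactory receptor inside the beta-globin region and overlaps other genes of the same strand, was at 2.35, 2.15 and 1.92 CPM in the control libraries and 7.20, 5.99 and 7.17 CPM under siRNA 2. AGAP2-AS1, a long noncoding RNA antisense to AGAP2, was at 2.19, 0.913 and 1.91 CPM in the control libraries and 8.09, 7.06 and 4.22 CPM under siRNA 2, the largest rise of the set at 3.86-fold, with wide scatter in both groups. AGAP2 itself lies on the opposite strand, and without a known strand setting the reads of such a pair cannot be told apart. The other rises were the pseudogene ZBTB45P2 (2.31-fold) and RPSAP52, a pseudogene transcript antisense to HMGA2 (2.11-fold). ZBTB45P2 overlaps LINC01106, and HABP4 overlaps CDC14B, in each case on the opposite strand and at a lower level than the partner. SPC24, a subunit of the NDC80 kinetochore complex, met the rule as well, at 7.21, 8.04 and 8.35 CPM in the control libraries and 9.84, 23.6 and 22.6 CPM under siRNA 2. Its low siRNA 2 library lay close to control, and its adjusted p of 0.026 rose to 0.083, 0.071 and 0.064 without control replicate 1, 2 or 3 and to 0.092 and 0.091 without siRNA 2 replicate 2 or 3.

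**Figure D3:**
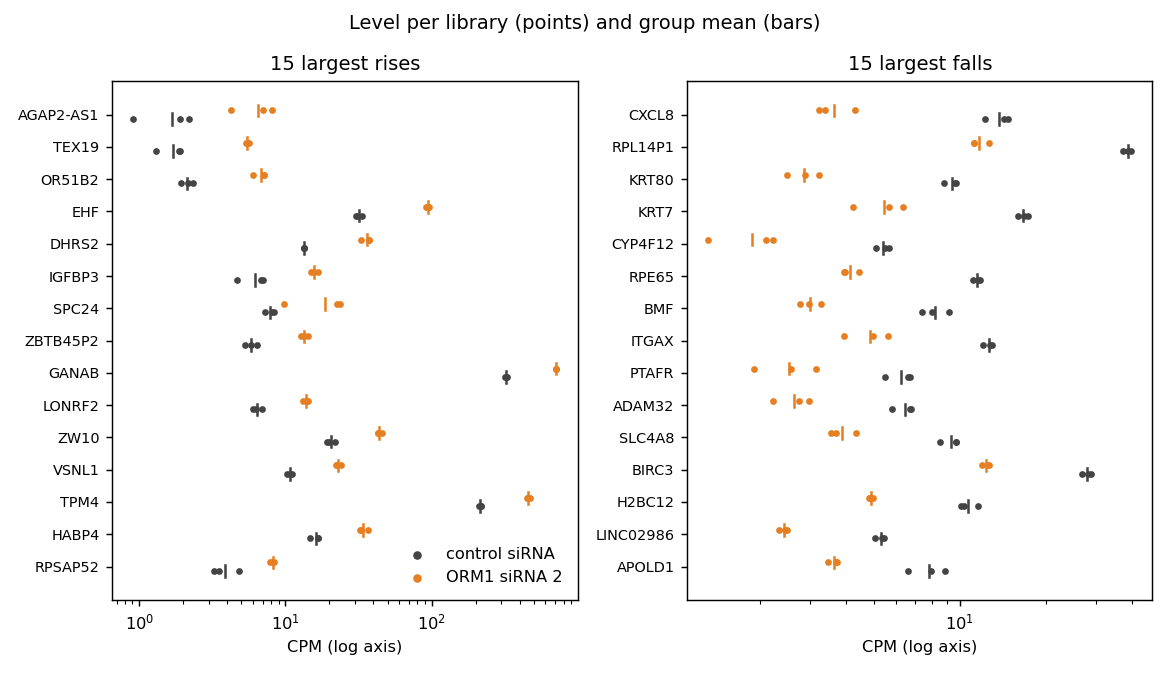
Points give the level in each control (grey) and siRNA 2 (orange) library and short bars the group means, on a log axis in CPM, for the 15 largest rises (left) and 15 largest falls (right). The groups of each gene are apart, and SPC24 and AGAP2-AS1 have the most scattered siRNA 2 libraries among the rises.

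The 15 largest falls included a chemokine, keratins and regulators of apoptosis. CXCL8, interleukin 8, which attracts neutrophils, was at 12.2, 14.2 and 14.8 CPM in the control libraries and 4.30, 3.37 and 3.23 CPM under siRNA 2, or 26.4% of control (log2 change −1.92, SE 0.14, adjusted p = 1.6e-06, edgeR). KRT80, a type II keratin of epithelial cells, was at 8.84, 9.65 and 9.70 CPM in the control libraries and 2.49, 3.22 and 2.87 CPM under siRNA 2. KRT7, the keratin of simple and glandular epithelia, was at 16.8, 16 and 17.3 CPM in the control libraries and 4.24, 6.34 and 5.67 CPM under siRNA 2. These keratins were at 30.4% and 32.4% of control, with no library of one group inside the range of the other. BIRC3, an inhibitor of apoptosis and a ubiquitin ligase of the TNF receptor pathway, was at 28.8, 26.9 and 28.1 CPM in the control libraries and 12.6, 11.9 and 12.6 CPM under siRNA 2. BMF, a pro-apoptotic protein of the BCL2 family, was at 9.18, 7.997 and 7.38 CPM in the control libraries and 2.76, 3.28 and 2.96 CPM under siRNA 2. ITGAX, the integrin chain CD11c, was at 12.8, 13 and 12.1 CPM in the control libraries and 5.59, 3.94 and 4.99 CPM under siRNA 2. RPL14P1, annotated as a processed pseudogene of the ribosomal protein gene RPL14, was at 37.4, 38.8 and 39.9 CPM in the control libraries and 11.2, 12.7 and 11.2 CPM under siRNA 2, while RPL14 itself, which shares its sequence, was at 405, 433 and 444 CPM with the control siRNA and 466, 502 and 503 CPM with siRNA 2, a rise of 1.15-fold, so that the division of reads between copy and parent is uncertain.

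PTAFR, the receptor of platelet-activating factor, was at 6.69, 6.57 and 5.50 CPM in the control libraries and 2.56, 3.13 and 1.91 CPM under siRNA 2. The bicarbonate transporter SLC4A8 was at 8.51, 9.70 and 9.71 CPM in the control libraries and 3.68, 4.34 and 3.56 CPM under siRNA 2. H2BC12, a replication-type histone H2B gene, was at 10.3, 10.1 and 11.6 CPM in the control libraries and 4.99, 4.82 and 4.85 CPM under siRNA 2. The remaining falls of the 15 were those of CYP4F12, a fatty acid hydroxylase of the cytochrome P450 family, at 34.8% of control, of RPE65, a retinoid isomerase, at 35.8%, of the sperm-associated metalloprotease homologue ADAM32 at 41.1%, of LINC02986 at 45.7% and of APOLD1, an apolipoprotein L domain gene, at 46.4%. APOLD1 overlaps the more abundant DDX47 on the same strand, and SLC4A8 overlaps the more abundant GALNT6 on the opposite strand, so their counts are uncertain. The highest adjusted p (edgeR) of these 15 genes was 0.0012, for APOLD1, and each of these 15 calls held without any single library.

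In absolute terms the response rested on other genes, because a modest fold of an abundant transcript moves many counts. CPM is not corrected for transcript length, so these differences rank counts and not molecules. HSP90AA1, the inducible form of the HSP90 chaperone, was at 2676, 2735 and 2713 CPM in the control libraries and 3677, 3782 and 3583 CPM under siRNA 2, 1.36-fold. HSP90AB1, the constitutive form, was at 3088, 3148 and 3171 CPM in the control libraries and 3961, 4104 and 3964 CPM under siRNA 2. HSPD1, the mitochondrial chaperonin HSP60, was at 1053, 1063 and 1093 CPM in the control libraries and 1543, 1576 and 1517 CPM under siRNA 2. HSPA8, the constitutive HSP70 of the cytosol, was at 1495, 1507 and 1536 CPM in the control libraries and 1957, 1991 and 1924 CPM under siRNA 2. In all 4 chaperone genes the lowest siRNA 2 library was above the highest control library. EEF2, the elongation factor that moves the ribosome along its message, rose 1.24-fold, the splicing regulator HNRNPA1 1.45-fold, the chromatin-associated protein gene PTMA 1.29-fold and GAPDH, the glycolytic dehydrogenase often used as a reference gene, 1.14-fold (adjusted p = 0.0012, edgeR). KITLG, the ligand of the KIT receptor, was at 697, 734 and 753 CPM in the control libraries and 1379, 1131 and 1388 CPM under siRNA 2, and siRNA 2 replicate 2 was the lowest of its group.

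The 10 largest falls in CPM comprised mitochondrial transcripts, a cyclin and genes of the cytoskeleton and the membrane. CCND1, cyclin D1, which drives cells through G1, was at 1578, 1572 and 1545 CPM in the control libraries and 831, 829 and 815 CPM under siRNA 2, 52.7% of control (log2 change −0.92, SE 0.021, adjusted p = 2.3e-10, edgeR). FLNA, which cross-links actin, was at 1241, 1219 and 1210.0 CPM in the control libraries and 959.9, 939 and 944 CPM under siRNA 2. CDCP1, a membrane substrate of SRC kinases, was at 787, 760.2 and 739 CPM in the control libraries and 497, 510.0 and 513 CPM under siRNA 2. ANXA2, a membrane-binding annexin, fell to 82.1% of control, the keratin KRT8 to 83.8%, EZR, which ties actin to the membrane, to 87.3% and the cytoplasmic actin ACTG1 to 92.6%. The mitochondrial transcripts MT-ND4, MT-CO2 and MT-RNR2, which were the first, the third and the fourth by size of the fall in CPM, were at 93.3%, 92.4% and 92.8% of control. These small falls were each lost in some leave-outs: MT-ND4 without control replicate 2 (edgeR's adjusted p = 0.05), MT-CO2 without control replicate 1 or siRNA 2 replicate 1 or 2 (0.068, 0.078 and 0.073), and MT-RNR2 without control replicate 3 or siRNA 2 replicate 1 (0.072 and 0.064). EIF4A1, the RNA helicase of translation initiation, was at 445, 502 and 731 CPM in the control libraries and 901, 1010.0 and 1026 CPM under siRNA 2, with control values that were far apart. It was called (adjusted p = 0.023, edgeR) but not without control replicate 1 or 2 or siRNA 2 replicate 2 or 3 (0.093, 0.087, 0.058 and 0.067). A readthrough gene that contains it, SENP3-EIF4A1, was at 413, 377 and 132 CPM with the control siRNA and at 158, 76.1 and 45.9 CPM with siRNA 2, the mirror image of that spread. The sum of both identifiers was 858, 879 and 862 CPM with the control siRNA and 1058, 1086 and 1072 CPM with siRNA 2. Summed in this way, a choice made after seeing the data, the change was 0.31 on the log2 scale in place of 0.81, with an adjusted p of 8.6e-06.

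Gene lists for 38 processes, part of 42 lists with 1374 symbols of which 1284 were tested, were read against the shares of all tested genes, 14.2% higher and 12.6% lower. No test was made of a list as a whole, and calls are those over all tested genes. The share called grows with level, so lists of abundant genes start from a higher share. Of all genes at 10 to 50 CPM 18.9% were higher and 17.6% lower, and at 50 to 200 CPM 30.5% and 24%. At 200 CPM or more these shares were 41.4% and 20.8%. A list share near that of its level class is no trait of the list. The process lists divided into a group called mostly higher, which holds cell division and the making of RNA and protein, a group called mostly lower, which holds signalling, adhesion, lipid and lysosomal genes, and a middle group with calls in both directions.

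**Figure D4:**
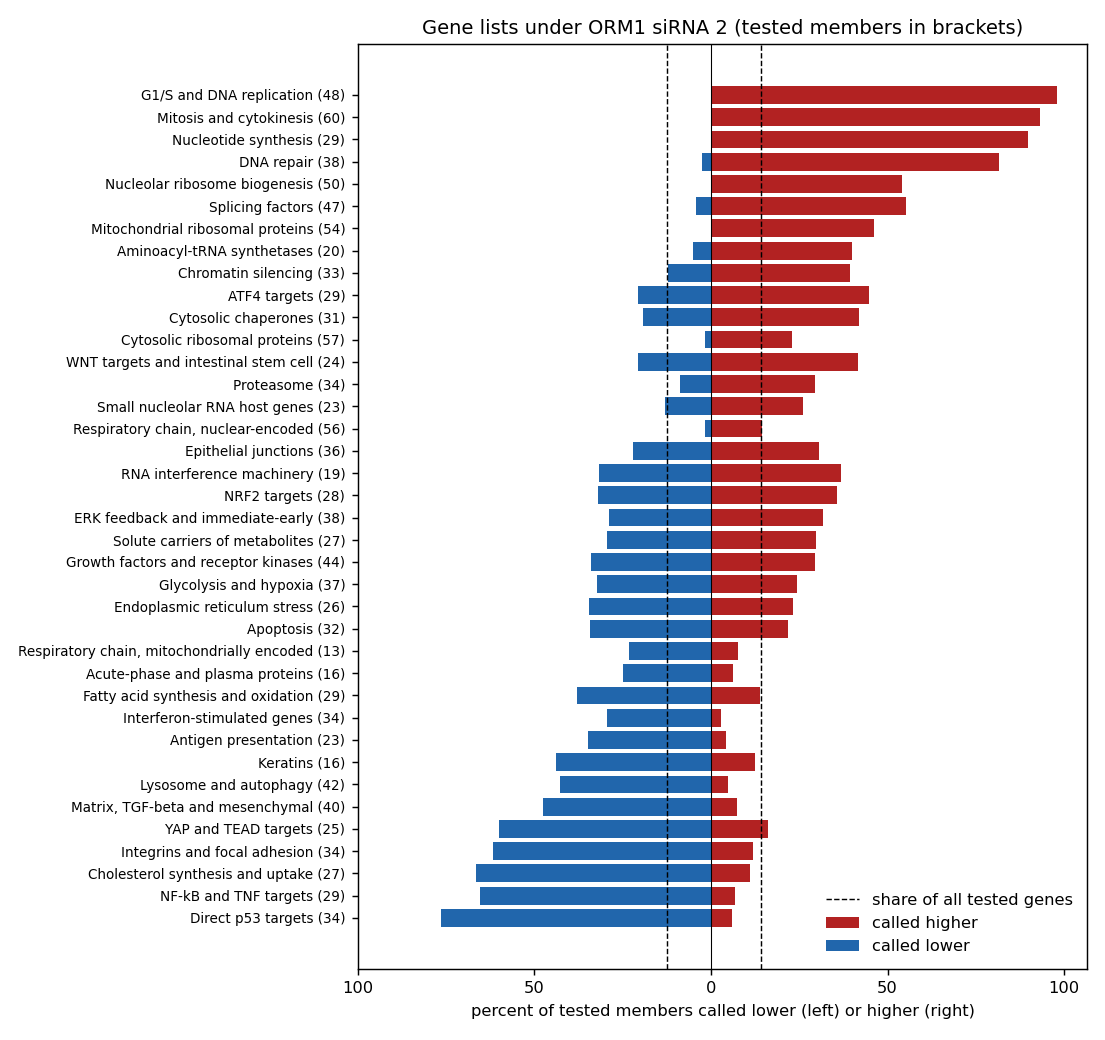
Bars give the percent of the tested members of each list called higher (red, to the right) or lower (blue, to the left) under siRNA 2, with the number of tested members in brackets. Dashed lines mark the shares of all tested genes, 14.2% higher and 12.6% lower. The lists of replication, mitosis and nucleotide synthesis stand at the top with no member called lower, and the p53, NF-kB and cholesterol lists at the bottom.

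Of 48 tested genes of the G1/S transition and DNA replication, 47 were higher and 0 lower, with a median log2 change of 0.43 against −0.004 for all tested genes. In bulk libraries a larger share of cells in S phase and more RNA per cell cannot be told apart. The summed level of the list was 3888 to 3972 CPM in control and 5190 to 5296 CPM under siRNA 2. GINS2, a subunit of the replicative helicase, was at 35.6, 36.9 and 36.5 CPM in the control libraries and 59.3, 62.1 and 61.8 CPM under siRNA 2. POLA1, the catalytic subunit of DNA polymerase alpha, was at 44.7, 40.05 and 38.9 CPM in the control libraries and 65.6, 71.3 and 64.8 CPM under siRNA 2. CDC45, which joins GINS and the MCM ring in the same helicase, was at 27.5, 30.03 and 25.5 CPM in the control libraries and 45.2, 43.2 and 43.5 CPM under siRNA 2. Their rises were 1.68, 1.63 and 1.59-fold, and each siRNA 2 library was above each control library. The 6 subunits of the MCM2-7 ring all rose, from 1.34-fold for MCM6 to 1.54-fold for MCM3 and MCM7. PCNA, the sliding clamp, rose 1.19-fold and E2F1, the transcription factor that activates many genes of this list, 1.37-fold. The member not called was the cyclin gene CCNE1, at 39, 40.5 and 42.5 CPM in the control libraries and 39.98, 43 and 40.3 CPM under siRNA 2. POLA2, the second subunit of polymerase alpha, is counted among the 47 (adjusted p = 0.037, edgeR), but its call was lost without any 1 control library (0.13, 0.077 and 0.064), without siRNA 1 replicate 1 (0.051), without siRNA 2 replicate 1 or 3 (0.053 and 0.18) and with the replicate number as a block (0.061). It shares its locus with an identifier without a name, and when the counts of both were summed, again after seeing the data, the change was 0.28 with an adjusted p of 0.0013.

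Promoter sequence was set beside these calls, since E2F factors are known to bind the letters TTTCCCGC or TTTGGCGC in front of replication genes. RefSeq promoters of GRCh38.p14, from 250 bases before to 50 after a gene's start, were matched by symbol to 12672 tested genes. The E2F letters, on either strand, were in 2.31% of all 27305 promoters of the table, in 5.53% of those of genes called higher, in 3.31% of those called lower and in 3.43% of those not called at 10 CPM or more. In the replication list they were in 18 of 41 promoters (43.9%). The following windows of the most abundant called members that hold a match are written along the strand of the gene, with the E2F letters or their reverse complement in capitals.
MCM7, chr7:100101566-100101595, minus strand: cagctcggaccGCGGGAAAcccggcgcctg
PCNA, chr20:5126663-5126692, minus strand: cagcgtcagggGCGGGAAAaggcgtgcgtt
MCM3, chr6:52284898-52284927, minus strand: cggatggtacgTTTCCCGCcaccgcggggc
The matches begin 187, 59 and 174 bases before the start of MCM7, PCNA and MCM3, whose mean levels went from 305 to 470, 266 to 317 and 204 to 315 CPM. A match is a description of letters and says nothing about binding in these cells.

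Nucleotide supply moved with replication. Of 29 tested genes 26 were higher and 0 lower, with a median log2 change of 0.28. RRM2, the S-phase subunit of ribonucleotide reductase, which makes deoxyribonucleotides, was at 387, 392 and 398 CPM in the control libraries and 601, 623 and 593 CPM under siRNA 2. Its partner RRM1 was at 159.7, 161 and 158 CPM in the control libraries and 225, 223 and 222 CPM under siRNA 2. TK1, the thymidine kinase of the salvage pathway, was at 241, 255 and 259 CPM in the control libraries and 324, 341 and 357 CPM under siRNA 2. CAD, the enzyme that starts pyrimidine synthesis, rose 1.38-fold and TYMS, thymidylate synthase, 1.31-fold, again with groups that did not overlap. PPAT, IMPDH1 and DHODH were the members not called.

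Genes of mitosis and cytokinesis were higher in 56 of 60 tested cases and lower in 0, with a median log2 change of 0.33. PLK4, the kinase that starts centriole duplication, was at 37.5, 41.2 and 38.5 CPM in the control libraries and 59.7, 59 and 60.1 CPM under siRNA 2. ASPM, a spindle pole protein, was at 76.4, 74.9 and 70.1 CPM in the control libraries and 114, 108 and 107 CPM under siRNA 2. CCNB1, the main mitotic cyclin, was at 173, 174 and 177 CPM in the control libraries and 233, 243 and 234 CPM under siRNA 2. These rises were 1.52, 1.49 and 1.36-fold. The kinase genes AURKA, AURKB and PLK1 rose 1.24, 1.31 and 1.21-fold, the transcription factor FOXM1 1.31-fold and the proliferation marker MKI67 1.24-fold. The 4 members not called were NUF2, ECT2, CKAP2L and CKS2, at log2 changes of 0.01, 0.06, 0.06 and 0.14, and CKS2 passed the test without siRNA 2 replicate 1 (0.21, adjusted p = 0.013, edgeR). The letters TTTGAA of the CHR element, through which the DREAM complex is known to hold back mitotic genes outside G2, were in 35 of 48 promoters of this list (72.9%), against 15.4% of all promoters, 12.1% of those of genes called higher and 8.07% of those called lower. CCAAT, the site of the factor NF-Y, was in 38 of the 48 (79.2%) and in 35.7% of all promoters. Of the promoters of tested genes 10.1% held the CHR letters and 36.1% held CCAAT. Windows of 2 abundant members show the CHR letters in capitals and are written along the strand of the gene.
MKI67, chr10:128126453-128126482, minus strand: ttagcgccagaaTTTGAAtcttcgttttcg
TOP2A, chr17:40418073-40418102, minus strand: cgagtggtgcctTTTGAAgcctctctagtc
These matches begin 47 and 194 bases before the start of the gene. The level of MKI67 went from 591 to 731 CPM and that of TOP2A, the topoisomerase that untangles chromosomes, from 228 to 303 CPM.

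DNA repair genes followed, with 31 of 38 higher and 1 lower. The exonuclease gene EXO1 was at 39.6, 38.8 and 40.04 CPM in the control libraries and 59.5, 58.6 and 54.2 CPM under siRNA 2. BRCA1, a scaffold of homologous recombination, was at 46.4, 44.4 and 42.9 CPM in the control libraries and 66.7, 62.9 and 62.4 CPM under siRNA 2. The mismatch sensor MSH6 was at 78, 76.3 and 80.03 CPM in the control libraries and 107, 113 and 108 CPM under siRNA 2. The groups were apart in all 3. LIG4, the ligase of end joining, was the member called lower, at 79.4% of control, and the damage kinase gene ATR was among the 6 not called, at a log2 change of 0.07.

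The machinery of RNA and protein production was higher in part. Of 50 nucleolar factors of ribosome biogenesis 27 were higher and 0 lower, with a median log2 change of 0.14. NOLC1, a nucleolar phosphoprotein, was at 288, 288 and 287 CPM in the control libraries and 481, 483 and 474 CPM under siRNA 2. TCOF1, the treacle protein, which supports ribosomal RNA transcription, was at 112, 109 and 108 CPM in the control libraries and 163, 177 and 173 CPM under siRNA 2. The histone chaperone family member NPM3 was at 53.4, 56.5 and 54.3 CPM in the control libraries and 71.4, 84.5 and 83.2 CPM under siRNA 2. Their rises of 1.67, 1.56 and 1.46-fold were the largest of the list, and NCL and NPM1, the most abundant nucleolar proteins, rose 1.17-fold and 1.2-fold. The E-box letters CACGTG, bound by MYC and related factors, were in 16 of 42 promoters of the list (38.1%). They were in 7.43% of all promoters, 9.81% of those of tested genes and 12.2% of those of genes called higher. Among the 16 is the promoter of FBL, the methyltransferase of ribosomal RNA, whose level went from 183 to 226 CPM.
FBL, chr19:39846356-39846385, minus strand, E-box in capitals: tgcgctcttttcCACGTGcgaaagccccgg
MYC itself was at 219, 220.4 and 219 CPM in the control libraries and 318, 331 and 329 CPM under siRNA 2, a 1.49-fold rise. Ribosomal protein genes of the cytosol responded less: 13 of 57 were higher and 1 lower, their median log2 change was 0.02 and turned below 0 when libraries were scaled by their totals alone. At 200 CPM or more 41.4% of all genes were higher, beside 22.8% of this list. RPL11 rose 1.24-fold and RPLP0 1.19-fold, and many of these genes have near-identical pseudogenes. RPL37 was the member called lower, at 91.5% of control, and its call was lost without any 1 library except control replicate 1 and siRNA 2 replicate 2 or 3 (adjusted p from 0.061 to 0.17, edgeR). Of 54 genes for mitochondrial ribosomal proteins 25 were higher and 0 lower (median 0.14), with MRPS34 the largest rise, at 49.4, 51.9 and 54 CPM in the control libraries and 70.7, 76 and 82.1 CPM under siRNA 2. Of the 56 nuclear-encoded subunits of the respiratory chain 8 (14.3%) were higher and 1 (1.79%) lower. Their summed level was 5527 to 5855 CPM in control, and of all genes at 50 to 200 CPM 30.5% were higher and 24% lower. The share higher was thus near the 14.2% of all tested genes but below that of this level class. Without siRNA 2 replicate 1 the number higher was 14. The member called lower was NDUFA13, at 81.9% of control. Of the 13 mitochondrially encoded subunits 1 was higher and 3 lower, at log2 changes between −0.11 and 0.07, and each of these 4 calls was lost without at least 1 single library.

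Of 47 splicing factors 26 were higher and 2 lower. SNRPA, a protein of the U1 particle, was at 68.3, 67 and 65.5 CPM in the control libraries and 97.4, 100.5 and 101 CPM under siRNA 2. HNRNPA1 was at 1035, 1049 and 1083 CPM in the control libraries and 1517, 1577 and 1511 CPM under siRNA 2. SRSF3, a serine- and arginine-rich splicing activator, rose 1.23-fold, while RBM39 and SNRPA1 fell to 86.8% and 87.2% of control. Of 20 cytosolic aminoacyl-tRNA synthetase genes 8 were higher and 1 lower, among them AARS1, the alanyl enzyme, at 248, 251 and 245 CPM in the control libraries and 314, 315 and 303 CPM under siRNA 2. The lower one was WARS1, the tryptophanyl enzyme, at 93% of control, a call lost without any 1 library except control replicate 1 and siRNA 2 replicate 2 (adjusted p from 0.056 to 0.15, edgeR). Of 34 proteasome genes 10 were higher and 3 lower, and the 3 lower ones, PSMC1, PSMC4 and PSMC5, encode ATPases of the base of the regulatory particle. PSMC4 fell to 84.3% of control, whereas the call of PSMC5 was lost without control replicate 3 (0.058) and that of PSMC1 without any 1 library except control replicate 1 (0.057 to 0.17).

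Chaperones split by class. In the list of cytosolic and mitochondrial chaperones 13 of 31 were higher and 6 lower, with a median log2 change of 0.05, but the abundant members moved up and the summed level went from 15350 CPM in the lowest control library to 18440 CPM in the lowest siRNA 2 library. The HSP90 cochaperones FKBP4 and AHSA1 rose 1.24 and 1.18-fold and SERPINH1, the collagen chaperone, 1.29-fold. HSPB8, a small heat shock protein of autophagy, was at 11.8, 10.9 and 10.3 CPM in the control libraries and 6.75, 5.81 and 5.96 CPM under siRNA 2, and its cofactor BAG3 fell to 90.7% of control. The stress-inducible genes HSPA1A, HSPA1B and DNAJB1 did not pass the test, at log2 changes of 0.04, 0.02 and 0.01, and HSF1, the factor that drives them, was at 89.5% of control and called lower. In the promoter of HSPA8 the heat shock letters (GAA, any 2 bases, TTC, any 2 bases, GAA; either strand), found in 5 of 28 promoters of the list and in 0.487% of all promoters, stand 230 bases before the start.
HSPA8, chr11:123062345-123062374, minus strand, match in capitals: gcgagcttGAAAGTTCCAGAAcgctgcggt
Among genes of the endoplasmic reticulum 6 of 26 were higher and 9 lower. The folding proteins CALR, CANX and HSP90B1 were higher, by 1.21, 1.1 and 1.16-fold, and the degradation and stress-sensing genes EDEM1, DERL2, SEL1L, SYVN1 and ERN1 were lower, at 72.2% to 89.9% of control. HSPA5, the luminal HSP70, was not called, at 104% of control. ATF4 targets, which serve amino acid supply, were higher in 13 of 29 cases and lower in 6, or in 4 without control replicate 1. TRIB3, a pseudokinase that feeds back on ATF4, was at 41, 38.6 and 40.6 CPM in the control libraries and 56.8, 57.1 and 56.8 CPM under siRNA 2, and DDIT4, an inhibitor of mTORC1, at 262, 280.5 and 275 CPM in the control libraries and 368, 384 and 387 CPM under siRNA 2.

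Direct p53 targets were the list with the largest share lower: 26 of 34 were lower and 2 higher, with a median log2 change of −0.35. CDKN1A, the cell cycle inhibitor p21, was at 559.9, 569 and 584 CPM in the control libraries and 304, 327 and 319.9 CPM under siRNA 2. GDF15, a secreted stress cytokine, was at 385, 399.5 and 404 CPM in the control libraries and 239.8, 239 and 240.0 CPM under siRNA 2. TP53INP1, a p53 cofactor of apoptosis and autophagy, was at 51.9, 51.7 and 54.4 CPM in the control libraries and 32.6, 30.5 and 30.5 CPM under siRNA 2. All 3 were at 55.5% to 60.5% of control, with no overlap. MDM2, the ubiquitin ligase that holds p53 down, fell to 78.2%, the death receptor gene FAS to 75.6% and the pro-apoptotic BAX to 86.5% of control. The 2 higher members were KITLG and PERP, a desmosome protein (1.37-fold). CCNG1, DDB2, XPC, BBC3, PLK2 and FBXO22 were not called, and SPATA18 and EDA2R fell below the count filter. Of 32 apoptosis genes, a list that shares BAX, BIRC3 and BBC3 with others here, 7 were higher and 11 lower, and without control replicate 3 or siRNA 2 replicate 3 the number higher was 4. Outside BMF and BIRC3, the pro-apoptotic PMAIP1 and the survival gene MCL1 were also lower, at 66.8% and 86.5% of control, so genes for and against cell death were called in the same direction.

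Genes of NF-kB and TNF signalling were lower in 19 of 29 cases and higher in 2, with a median log2 change of −0.48. Apart from CXCL8 and BIRC3, they included the inhibitors that the pathway induces against itself. NFKBIA, which holds NF-kB in the cytoplasm, was at 36.4, 41 and 36.7 CPM in the control libraries and 19.4, 19.4 and 20.8 CPM under siRNA 2. TNFAIP3, the A20 enzyme, which edits ubiquitin on receptor complexes, was at 14.1, 13.8 and 14.1 CPM in the control libraries and 4.99, 7.76 and 7.14 CPM under siRNA 2. CXCL1, a neutrophil chemokine, was at 2.04, 3.46 and 1.62 CPM in the control libraries and 0.909, 0.824 and 0.483 CPM under siRNA 2. In all 3 the siRNA 2 libraries were below every control library, with means at 52.3%, 47.4% and 31.1% of control. The subunit genes RELB, NFKB2 and RELA were lower, at 56.3%, 70.9% and 80.4% of control, NFKB1 was not called at 94.5%, and TRAF2 and IER3 were the 2 members called higher. CCL20, a chemokine counted among the 19, was at 0.560, 0.849 and 0.742 CPM in the control libraries and 0.0455, 0 and 0.0711 CPM under siRNA 2, and its call was lost without control replicate 2 or 3 or siRNA 2 replicate 1 or 2 (0.071, 0.061, 0.068 and 0.072). The kappa B letters (GGG, any 2 bases, TTTCC; either strand) were in 10 of 25 promoters of the list (40%) and in 1.92% of all promoters, 2% of those of genes called higher and 2.61% of those called lower. In the windows below they stand in capitals as the reverse complement.
NFKBIA, chr14:35404811-35404840, minus strand: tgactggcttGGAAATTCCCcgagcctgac
BIRC3, chr11:102317275-102317304, plus strand: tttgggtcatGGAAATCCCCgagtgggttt
TNFAIP3, chr6:137867182-137867211, plus strand: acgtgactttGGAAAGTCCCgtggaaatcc
These matches begin 81, 199 and 67 bases before the start of the gene.

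Of 34 tested interferon-stimulated genes 10 were lower, 1 was higher and 23 were not called. Another 7 of the list fell below the count filter, and of those XAF1, RSAD2, CXCL10 and CXCL11 were at 0 in all control and siRNA 2 libraries. IFIH1, the sensor of long double-stranded RNA, was at 8.95, 8.12 and 8.71 CPM in the control libraries and 5.70, 5.96 and 5.72 CPM under siRNA 2. IFI6 was at 6.83, 7.15 and 6.32 CPM in the control libraries and 4.12, 4.33 and 4.58 CPM under siRNA 2. OASL, of the oligoadenylate synthetase family, was at 5.56, 5.50 and 4.95 CPM in the control libraries and 3.15, 2.83 and 3.70 CPM under siRNA 2. The groups did not overlap in these 3. The member called higher was OAS3, 1.18-fold, and the RNA sensor gene DHX58 was not called, at a log2 change of −0.30. BST2, counted among the 10, was at 0.893, 0.785 and 1.09 CPM in the control libraries and 0.409, 0.614 and 0.313 CPM under siRNA 2 and its call was lost without control replicate 1 or 3 or siRNA 2 replicate 1 or 3 (0.059, 0.1, 0.087 and 0.11). Of 23 genes of antigen presentation 8 were lower and 1, the proteasome activator gene PSME1, higher. The class I chain genes HLA-B and HLA-E and the peptide transporter gene TAP1 were at 87%, 89.2% and 81.5% of control, whereas B2M and HLA-C were not called, at 97.5% and 99.5%. Genes of the HLA family share sequence, so their counts can be divided among them. Among 16 tested acute-phase and plasma proteins, the class to which orosomucoid belongs, 4 were lower, ORM1 included, and 1 was higher. LRG1 was at 1.03, 0.881 and 1.15 CPM in the control libraries and 0.212, 0.315 and 0.242 CPM under siRNA 2, C3 at 2.63, 1.67 and 2.03 CPM in the control libraries and 1.35, 1.05 and 0.725 CPM under siRNA 2 and SERPINA1 at 8.64, 9.62 and 8.79 CPM in the control libraries and 6.68, 6.04 and 6.47 CPM under siRNA 2, all without overlap. The higher one was the transcription factor STAT3, 1.06-fold, a call lost without any 1 library except siRNA 2 replicate 3 (adjusted p from 0.055 to 0.16, edgeR). The other 13 members of the list, CRP and the fibrinogen genes among them, fell below the count filter.

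Adhesion genes were lower as well. Of 34 integrin and focal adhesion genes 21 were lower and 4 higher, with a median log2 change of −0.29. ITGA2, the alpha chain of a collagen receptor, was at 249, 235 and 242 CPM in the control libraries and 154, 145 and 148 CPM under siRNA 2. ITGA3, the alpha chain of a laminin receptor, was at 751, 729 and 719 CPM in the control libraries and 498, 511 and 522 CPM under siRNA 2. ITGA5, the alpha chain of the fibronectin receptor, was at 220.4, 209 and 215 CPM in the control libraries and 148, 152 and 152 CPM under siRNA 2. They were at 61.7%, 69.7% and 70.4% of control, and ITGB1, their common partner, was at 92.2%, also called lower. The members called higher were CAV1, ITGB4, TNS3 and PTK2, by 1.16, 1.15, 1.13 and 1.12-fold, and TNS3 lost its call without any 1 of the 9 libraries (adjusted p from 0.053 to 0.16, edgeR). Of 40 matrix, TGF-beta and mesenchymal genes 19 were lower and 3 higher (median −0.33). TIMP2, an inhibitor of matrix metalloproteases, was at 325, 310.5 and 309.7 CPM in the control libraries and 168, 169.5 and 170.3 CPM under siRNA 2. TGM2, a transglutaminase, was at 96.2, 101 and 96.5 CPM in the control libraries and 47.9, 49.5 and 51.9 CPM under siRNA 2. SNAI2, the Slug repressor of the epithelial state, was at 0.742, 0.946 and 1.20 CPM in the control libraries and 0.182, 0.240 and 0.355 CPM under siRNA 2. The first pair were at 53.7% and 50.8% of control, and SNAI2 was at 26.9% from a low level. PLAU and PLAUR, of the plasminogen activation system, were at 61% and 73.5%. Of the 3 members called higher, the laminin chain LAMB1 rose 1.18-fold and the call of FN1, fibronectin, was lost without any 1 library except control replicate 1 and siRNA 1 replicate 1 (adjusted p from 0.054 to 0.15, edgeR). MMP7, the third, had an adjusted p of 0.035 and lost its call without control replicate 1 or 2, siRNA 1 replicate 1 or 2, or siRNA 2 replicate 1 or 3 (0.095, 0.056, 0.05, 0.051, 0.067 and 0.11).

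In the list of YAP and TEAD targets 15 of 25 were lower and 4 higher (median −0.35). NT5E, the ectonucleotidase CD73, was at 335, 332 and 352 CPM in the control libraries and 183, 186 and 179 CPM under siRNA 2. CRIM1, a membrane protein that binds growth factors, was at 121, 122 and 119.8 CPM in the control libraries and 70.02, 69.1 and 69.4 CPM under siRNA 2. CCN2, the connective tissue growth factor, was at 15.1, 14.9 and 13.9 CPM in the control libraries and 9.84, 9.26 and 8.58 CPM under siRNA 2. They were at 53.9%, 57.3% and 63% of control, CCN1 was not called at 91.5%, and of the factors themselves YAP1 and TEAD4 were higher, by 1.12 and 1.29-fold, and WWTR1, or TAZ, was lower, at 84.3%. The other two members called higher were IGFBP3 and AMOTL1, and AMOTL1 lost its call without any 1 library except control replicate 1 or 3 and siRNA 2 replicate 2 (adjusted p from 0.056 to 0.18, edgeR). The TEAD letters GGAATG were in 6 of 18 promoters of the list, 14% of all promoters and 11% of those of tested genes. RBMS3, counted among the 15 and below 1 CPM, lost its call without control replicate 1 or 2 or siRNA 2 replicate 1 or 3 (0.065, 0.097, 0.076 and 0.083). Of 16 keratins 7 were lower and 2 higher. Besides KRT7 and KRT80, KRT81 was at 2.09, 1.15 and 1.64 CPM in the control libraries and 0.0909, 0.285 and 0.313 CPM under siRNA 2, KRT18 was at 82.7% and KRT19 at 81.1% of control, and KRT13 was higher, at 0.939, 0.946 and 0.818 CPM in the control libraries and 2.18, 1.32 and 1.69 CPM under siRNA 2. KRT23 was the other higher one, 1.31-fold, and lost its call without siRNA 2 replicate 3 (0.052). Junction genes were divided, with 11 of 36 higher and 8 lower: ESRP1, a splicing regulator of epithelial cells, was at 99.9, 96 and 103 CPM in the control libraries and 163, 153 and 158 CPM under siRNA 2, GRHL2, an epithelial transcription factor, rose 1.48-fold, while the tight junction genes OCLN, CLDN4 and TJP1 fell to 73.7%, 77.3% and 83.4% of control.

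Of 27 genes of cholesterol synthesis and uptake 18 were lower and 3 higher, with a median log2 change of −0.29. MSMO1, a sterol methyl oxidase, was at 97.4, 99.7 and 100.1 CPM in the control libraries and 56.3, 56.2 and 53.3 CPM under siRNA 2. SC5D, a sterol desaturase of the same pathway, was at 66.6, 68.6 and 66.4 CPM in the control libraries and 46.5, 45.2 and 43.4 CPM under siRNA 2. The largest fall was that of MSMO1, to 55.8% of control. SREBF2, the transcription factor of the pathway, was lower, at 85.8%, while INSIG1, which holds its precursor in the endoplasmic reticulum, was higher, 1.26-fold. The sterol element letters TCACNCCAC, on either strand, were in 1 of 20 promoters of the list, that of SREBF2, and in 1.15% of all promoters. Of 29 fatty acid genes 11 were lower, 4 higher and 14 not called: PLIN2, which coats lipid droplets, was at 204, 202 and 202 CPM in the control libraries and 141, 145 and 142 CPM under siRNA 2, and ACSL5, an acyl-CoA synthetase of the intestine, at 176, 159 and 174 CPM in the control libraries and 250.4, 250.5 and 248 CPM under siRNA 2. The desaturase gene SCD was lower, at 91% of control.

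Of 42 lysosome and autophagy genes 18 were lower, 22 were not called and 2 were higher, namely GAA (1.24-fold) and BECN1 (1.13-fold). NEU1, a lysosomal sialidase, was at 45, 46.6 and 47.7 CPM in the control libraries and 24.9, 27.5 and 27.1 CPM under siRNA 2. GABARAPL1, which decorates autophagosomes, was at 55.5, 59.6 and 55.5 CPM in the control libraries and 38.8, 38.4 and 38.1 CPM under siRNA 2. TFE3, a transcription factor of lysosomal genes, was at 35.9, 35.7 and 35.5 CPM in the control libraries and 26.4, 25.3 and 26.1 CPM under siRNA 2. The cathepsin genes CTSL and CTSB were lower, at 74.1% and 87.9%, LAMP2 was lower at 80.9%, and LAMP1 was not called at 97.5%. Glycolysis and hypoxia genes were called in both directions, 9 of 37 higher and 12 lower. Among the isoforms of phosphofructokinase PFKL was at 197, 194 and 199 CPM in the control libraries and 243, 253 and 251 CPM under siRNA 2 and PFKP at 648, 668 and 675 CPM in the control libraries and 521, 536 and 529 CPM under siRNA 2, and PFKM was not called. The glucose transporter SLC2A1 fell to 80.2% and LDHA rose 1.09-fold. NRF2 targets were also divided, 10 of 28 higher and 9 lower. NQO1, a quinone reductase, was at 275, 282 and 290.5 CPM in the control libraries and 447, 472 and 459.5 CPM under siRNA 2, whereas HMOX1, heme oxygenase, was at 37.5, 36.7 and 38 CPM in the control libraries and 22.8, 26.6 and 22.6 CPM under siRNA 2 and TXNRD1 at 890.3, 878 and 892 CPM in the control libraries and 724, 744 and 730.3 CPM under siRNA 2, and NFE2L2, which encodes NRF2, was at 84% of control. Of 27 metabolite transporters 8 were higher and 8 lower, and the creatine carrier gene SLC6A8 rose 1.22-fold.

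Growth signalling was divided by gene. Of 44 growth factors and receptor kinases 13 were higher and 15 lower. PDGFB, a chain of platelet-derived growth factor, was at 78.7, 75.7 and 78.8 CPM in the control libraries and 37.8, 38.1 and 36.6 CPM under siRNA 2. EPHA2, an ephrin receptor, was at 448, 459.7 and 456 CPM in the control libraries and 274, 287 and 294 CPM under siRNA 2. HBEGF, an EGF-family ligand, was at 22.6, 24 and 24.6 CPM in the control libraries and 14.1, 15.2 and 13 CPM under siRNA 2. These were at 48.3%, 62.6% and 59.5% of control, and EGFR was at 76.8%, while the ligands AREG and EREG rose 1.53 and 1.18-fold and the receptors ERBB3 and FGFR4 1.18 and 1.19-fold. Of 38 ERK feedback and immediate-early genes 12 were higher and 11 lower, with EGR1, a growth-induced transcription factor, at 112, 105 and 103 CPM in the control libraries and 180.5, 172 and 171 CPM under siRNA 2 and DUSP5, a nuclear ERK phosphatase, at 289.6, 293 and 286 CPM in the control libraries and 169, 168 and 171 CPM under siRNA 2. DUSP6, a common marker of ERK activity, was not called, at 104% of control. Of 24 WNT targets and intestinal stem cell genes 10 were higher and 5 lower. SOX4, a transcription factor of progenitors, was at 70.9, 71.7 and 76.1 CPM in the control libraries and 113, 112 and 112 CPM under siRNA 2, BMP4 at 76.3, 76 and 73.3 CPM in the control libraries and 118, 121 and 119 CPM under siRNA 2, and ID2, an inhibitor of differentiation factors, at 154, 162 and 174 CPM in the control libraries and 107, 110.2 and 108 CPM under siRNA 2. AXIN2, the best known WNT target, was not called, at 108%, and LGR5 and ASCL2 fell below the count filter.

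Genes of the RNA interference machinery, through which an siRNA acts, were called in 13 of 19 tested cases, 7 higher and 6 lower. The microprocessor genes DROSHA and DGCR8 were higher, by 1.24 and 1.11-fold, as were the Argonaute genes AGO1 and AGO2, by 1.16 and 1.1-fold. AGO3 and the scaffold gene TNRC6C were lower, at 88.2% and 80.5% of control. The number lower was 4 in place of 6 without control replicate 1 or without siRNA 2 replicate 2 or 3. TSNAX, of the translin complex that removes passenger strands, was at 75.9, 80.3 and 81.5 CPM in the control libraries and 58.1, 49.7 and 65 CPM under siRNA 2. Of 33 chromatin silencing genes 13 were higher and 4 lower. HELLS, a helicase that supports DNA methylation, was at 98.5, 98.6 and 99.8 CPM in the control libraries and 138, 128 and 127 CPM under siRNA 2, the maintenance methyltransferase DNMT1 rose 1.14-fold and EZH2, the polycomb methyltransferase, 1.12-fold, while the polycomb gene PHC2 fell to 85.3% of control. CBX8 and PHC1 were lower as well, and without control replicate 2 both lost their calls (0.096 and 0.074). CBX8 lost it also without siRNA 2 replicate 3 (0.085), and PHC1 without control replicate 1 or 3 or siRNA 2 replicate 2 (0.059, 0.077 and 0.11). Among 23 host genes of small nucleolar RNAs 6 were higher and 3 lower, led by SNHG4, 1.61-fold, and SNHG5, at 82.4% of control.

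The response to siRNA 2 was next compared with that to siRNA 1 through the difference between these groups, since both share the control libraries. Between siRNA 2 and siRNA 1 2058 genes (9.83%) were higher and 1694 (8.09%) lower under siRNA 2, 17.9% of those tested. For 3554 of the 5597 genes called under siRNA 2 the difference from siRNA 1 did not pass the test, which does not show that the levels were alike. Called against control and against siRNA 1 alike, 877 genes were higher and 539 lower under siRNA 2. In the opposite case, 320 genes higher than control were lower than under siRNA 1 and 307 genes lower than control were higher. In 538 genes called higher and 374 called lower against both groups, the change under siRNA 1 was itself not called.

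Among these the largest falls were in RPL14P1 and KRT80. RPL14P1 was at 28.9, 43.5 and 34 CPM under siRNA 1, a range that takes in the control values, against 11.2, 12.7 and 11.2 CPM under siRNA 2 (log2 difference −1.60, adjusted p = 3.3e-06, edgeR). KRT80 was at 8.32, 7.64 and 7.32 CPM under siRNA 1 and 2.49, 3.22 and 2.87 CPM under siRNA 2 (log2 difference −1.44, adjusted p = 1e-05, edgeR). DRAXIN, a secreted axon guidance protein, was at 10.6, 11.7 and 12.1 CPM with the control siRNA, 10.00, 9.90 and 9.54 CPM under siRNA 1 and 5.83, 6.08 and 6.29 CPM under siRNA 2. The siRNA 2 libraries of these genes were below all 6 others. NLRP1, an inflammasome sensor, was at 14.4, 13.5 and 12.8 CPM with the control siRNA, 11.7, 11.8 and 12 CPM under siRNA 1 and 6.91, 8.79 and 6.87 CPM under siRNA 2. The other falls were those of ACHE, acetylcholinesterase, LIPG, endothelial lipase, GLIS3, a zinc finger factor, and the histone gene H2AC6, at 50.7%, 54.5%, 54.6% and 55.7% of control.

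Of the corresponding rises the largest was that of AGAP2-AS1, which was at 2.17, 2.10 and 0.707 CPM under siRNA 1. RAB26, a small GTPase of secretory vesicles, was at 12.7, 14.7 and 13.2 CPM with the control siRNA, 14.5, 16.8 and 15.4 CPM under siRNA 1 and 24.4, 26.5 and 23.6 CPM under siRNA 2. ELL3, an elongation factor, was at 6.81, 6.38 and 5.67 CPM with the control siRNA, 4.81, 5.37 and 5.89 CPM under siRNA 1 and 9.76, 9.56 and 10.03 CPM under siRNA 2. COX20, an assembly factor of cytochrome oxidase, was at 18, 30.1 and 18.9 CPM with the control siRNA, 24.5, 33 and 29.9 CPM under siRNA 1 and 32.7, 49.2 and 58.4 CPM under siRNA 2. The siRNA 2 libraries of RAB26 and ELL3 were above all others, while the lowest of COX20 was below the highest siRNA 1 library, and on the opposite strand COX20 overlaps HNRNPU and ELL3 overlaps PDIA3 and SERF2, all more abundant. LINC00173 and SFXN2, a mitochondrial carrier, rose 1.78 and 1.54-fold against control. ROR1, an orphan receptor kinase, rose 1.53-fold (adjusted p = 0.016, edgeR), a call lost without control replicate 2 (0.064) or siRNA 2 replicate 3 (0.071).

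**Figure D5:**
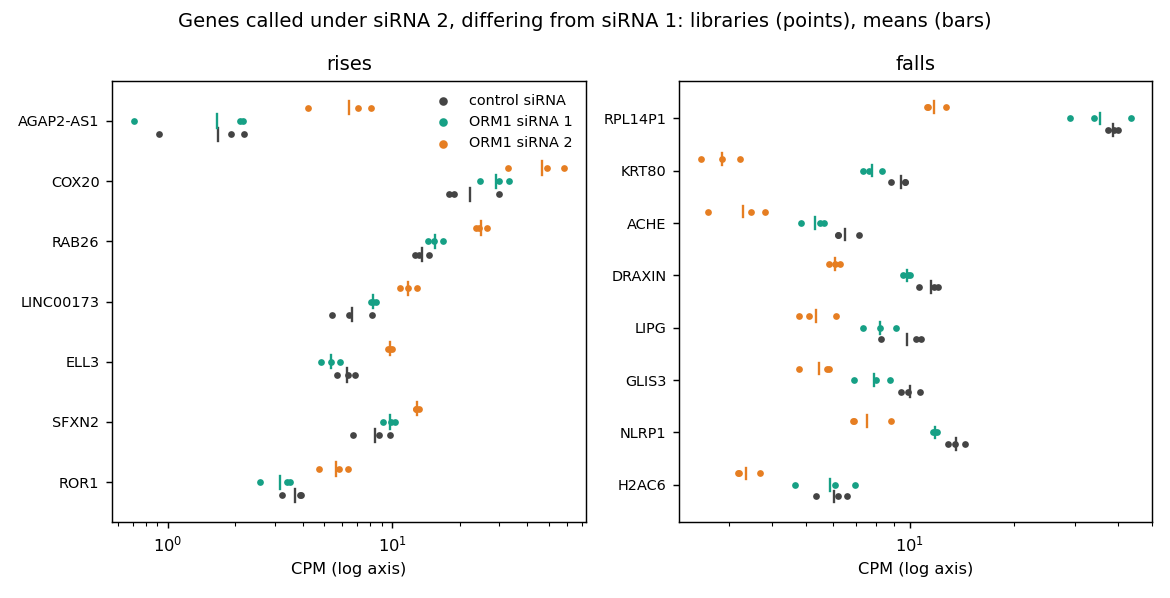
Points give the level in each control (grey), siRNA 1 (green) and siRNA 2 (orange) library and short bars the group means, on a log axis in CPM, for the genes called under siRNA 2 against control and against siRNA 1 but not under siRNA 1: the 8 largest falls (right) and 7 of the 8 largest rises (left). In RPL14P1, KRT80 and DRAXIN the siRNA 2 libraries lie below all others.

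Groups of genes differed between the siRNAs too. Of all tested genes 9.83% were higher and 8.09% lower under siRNA 2 than under siRNA 1. Shares by level were not computed for this comparison, so lists of abundant genes may start from higher shares. Of 31 chaperone genes 27 were higher and 0 lower under siRNA 2 than under siRNA 1. HSP90AA1 was at 2455, 2484 and 2470.0 CPM under siRNA 1, below control, and HSPD1 at 1056, 1048 and 1065 CPM, within 2% of control, so that the rise of both against control was found with siRNA 2 (log2 differences between the siRNAs 0.58 and 0.55, adjusted p = 3.3e-08 and 4.3e-08, edgeR). HSPA8 was higher under both, at 1823, 1872 and 1860.0 CPM under siRNA 1. Of the replication list 32 of 48 were higher and 1 lower under siRNA 2 than under siRNA 1, of nucleotide synthesis 24 of 29 and 0, of mitosis 33 of 60 and 0, of nucleolar factors 29 of 50 and 0, of proteasome genes 16 of 34 and 0, and of tRNA synthetases 15 of 20 and 0. The lists with more members lower under siRNA 2 than under siRNA 1 included junction genes, 15 of 36 against 1 higher, p53 targets, 11 of 34 against 1, cholesterol genes, 10 of 27 against 1, and growth factors, 16 of 44 against 3. Of the 15 largest rises under siRNA 2, 5 were called higher still under siRNA 1. DHRS2, TEX19 and VSNL1 were at 87.5, 12.2 and 39.5 CPM there, with log2 differences of −1.28, −1.15 and −0.78 between siRNA 2 and siRNA 1. EHF and TPM4 were at 114 and 557 CPM, with smaller differences of −0.28 and −0.28.

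With unnamed identifiers and readthrough genes left out, 20 called genes had no counts in one group, 11 higher and 9 lower. CUZD1, a zona pellucida domain protein of the pancreas and uterus, had 0 counts in the 3 control libraries and 93, 26 and 24 under siRNA 2, at least 15.4-fold higher against a floor of 3 counts per library. PADI1, a peptidylarginine deiminase of the epidermis, had 11, 18 and 21 counts in control and 0 under siRNA 2, at least 5.81-fold lower. ADAM23 and KCNH6 went from 27, 15 and 20 counts and from 17, 12 and 14 counts to 0, at least 7.16-fold and 4.97-fold lower. APOBEC3A, a cytidine deaminase, had 37, 44 and 0 counts in control and 0 under siRNA 2 and was called at an adjusted p of 0.034 (edgeR). CUZD1 and APOBEC3A overlap the more abundant FAM24B and APOBEC3B on the same strand. That call was lost without control replicate 1 or 2, siRNA 1 replicate 2, or siRNA 2 replicate 1, 2 or 3 (0.074, 0.089, 0.052, 0.075, 0.073 and 0.08). At the other end, genes of at least 50 CPM in every library with the smallest change included EIF3I, a subunit of the initiation factor eIF3, at 219.5, 226 and 220.1 CPM in the control libraries and 219, 225 and 222 CPM under siRNA 2, PUM2, a repressor of translation, at 200.4, 194 and 194 CPM in the control libraries and 205, 184 and 199 CPM under siRNA 2, and the deubiquitinase OTUD4, at 101, 95.8 and 93.5 CPM in the control libraries and 102, 88.6 and 99.5 CPM under siRNA 2. Their groups overlapped, and ENTPD6 and MARF1 were the other 2 genes so chosen.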

How the data were processed

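RNA from HCT116 cells was measured in 9 libraries, of which 3 control and 3 siRNA 2 libraries were compared. The authors deposited a table of raw counts per Ensembl gene identifier and library, made on genome build hg19, per the submitters' processing notes; the aligner, the counting tool, the annotation and the strand setting are not named there or in the labels. Totals were 60698684 to 71431723 counts, so intervals and floors cover counting error only. Counts of 1 to 40 were multiples of 4 in 28.0% of cases, and dividing by 4 was therefore tried. Symbols came from a table of current gene names (61757 of 61806 identifiers matched), gene types and overlaps from GENCODE 29, promoters from RefSeq.

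Genes were filtered with filterByExpr and tested with edgeR 4.0.16 (R 4.3.3; TMM scaling, quasi-likelihood test) in 1 model of all 9 libraries, with calls below an adjusted p of 0.05. SE is the log2 change divided by the root of F. CPM values are counts over the library total after TMM scaling. Named genes were the 15 largest rises and falls at 5 CPM or more, the 10 largest in CPM, 8 of each direction against siRNA 1, up to 4 members per list, 5 genes with no counts in a group and 5 steady genes; other list members were named after their values were seen. Some genes that met these rules are not reported here. Members and lists were chosen with earlier results of these data known. Alternatives used limma 3.58.1, DESeq2 1.42.0, other scalings, filters, libraries left out and the replicate number as a block. The labels do not say whether same-numbered libraries were handled together. The deviations of same-numbered libraries correlated at 0.006, −0.001 and 0.013. No shared effect was visible in them, which cannot show that the libraries were unpaired. Counts of 20067 genes were also simulated, with 50 genes changed at each fold, all above 1 CPM in control. Of the genes changed 1.25, 1.5, 2 and 3-fold, 32%, 76%, 76% and 96% were recovered, with 8 false among 148 calls. Far fewer genes were changed there than were called in the data, so these shares do not give the recovery in the real comparison.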

Additional observations from a re-analysis of the deposited data

How the results depend on the processing

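Across the other 20 settings the number of genes called under siRNA 2 lay between 4699 and 6143, apart from the test against a fold of 1.5, and all calls shared with the reported 5597 kept their direction. Against a fold of 1.5 (glmTreat) 36 genes were higher and 53 lower than control, and 20 higher and 26 lower than under siRNA 1. Scaling by library totals alone lowered the share of calls that were higher from 53.1% to 45.3%. ORM1 had a log2 change of −3.2 without a count filter (adjusted p = 0.054, edgeR), −3.2 against a fold of 1.5 (0.46) and −3.23 with DESeq2 (0.072), and from −3.88 to −2.63 with 1 library left out. ORM2 was called at −2.75 with only the 6 libraries compared (0.023), −2.58 with counts divided by 4 (0.013), −2.78 with DESeq2 (0.011) and −3.59 with limma-voom (0.038), and ranged from −3.57 to −2.18 with 1 library left out, where it was called only without siRNA 1 replicate 3 (0.028). The cause of these changes was not tested. Whether replicate numbers pair the libraries is not stated in the labels. With the number as a replicate block 5589 genes were called, 5315 of them shared. In that setting ORM1 was at −3.6 and ORM2 at −2.76, and of the named genes POLA2 and TNS3 lost their calls and CKS2 gained one. Of 340 genes that met the naming rules or were added to them 35 changed side in a setting other than the fold threshold, 0 changed direction, and 262 were not past a fold of 1.5. The difference between the siRNAs has no value in the fit of 6 libraries, and ORM1 and ORM2 have none with the filter at 1 CPM.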

Other observations

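Genes were also grouped by the start of their symbol, in families of at least 40 tested genes, a grouping made after values were seen, and their calls are read beside 14.2% higher and 12.6% lower among all tested genes. The largest share higher was that of genes named MRPL, which encode the large subunit of the mitochondrial ribosome, with 20 of 49 (40.8%) higher and 0 lower. Genes named EIF, initiation factors, were higher in 18 of 56 cases (32.1%) and lower in 7 (12.5%). Their median level was 138 CPM, and of all genes at 50 to 200 CPM 30.5% were higher and 24% lower. Deubiquitinase genes named USP were higher in 14 of 50 and lower in 6. Of 396 tested genes named ZNF, zinc finger genes, 95 (24%) were higher and 16 (4.04%) lower, with a median log2 change of 0.10. ZNF616, a zinc finger protein with a KRAB domain, was at a mean of 6.19 CPM in control and 13.04 CPM under siRNA 2. Genes named ZBTB, a related family with a BTB domain, were higher in 9 of 40 cases and lower in 1. The largest shares lower were those of genes named MAP, 12 of 42 (28.6%) with 8 higher, and of genes named ATP, 18 of 73 (24.7%) with 9 higher. Genes named SLC were lower in 59 of 277 cases and higher in 40, genes named RAB lower in 14 of 67 and higher in 8, and genes named TMEM lower in 38 of 189 and higher in 18. Apart from EIF, the families named here had median levels from 11.3 CPM (ZNF) to 48 CPM (USP). Of all genes at 10 to 50 CPM 18.9% were higher and 17.6% lower, so part of these shares goes with level. Many zinc finger genes share repeated sequence, and how such reads were counted is unknown.

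Of 29 tested histone genes of the replication clusters, grouped after values were seen, 12 were lower and 0 higher, beside 12.6% and 14.2% of all tested genes, and the median log2 change was −0.75. The other 17 were not called, with log2 changes from −1.74 for H2AC13 to 1.57 for H2BC17. Their summed level was 50.3 to 56.1 CPM in control and 28.2 to 28.7 CPM under siRNA 2. H1-2, a linker histone, was at 3.94, 5.16 and 4.67 CPM in the control libraries and 3.20, 3.60 and 3.09 CPM under siRNA 2 (log2 change −0.48, adjusted p = 0.022, edgeR). These transcripts mostly lack a poly(A) tail and are near-identical to each other; how RNA was selected and how shared reads were divided is not given in the labels.

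Some identifiers differed between libraries in the opposite direction to a gene that overlaps them. Of 124 genes at 10 CPM or more whose SD was over 25% of the mean in a group, 83 (66.9%) overlapped another expressed gene on the same strand, against 895 (8.45%) of all 10591 genes at that level, and 7 of the 124 were called. The readthrough ISY1-RAB43 was at 11.8, 15.4 and 16.5 CPM in control and at 0 CPM in the 3 siRNA 2 libraries and was called lower (adjusted p = 0.015, edgeR). ISY1 and RAB43 were called higher, while ISY1, RAB43 and the readthrough summed to 56.8, 56.4 and 57.1 CPM and to 59.3, 65.2 and 61.1 CPM. An identifier without a name at PIK3R2 and IFI30 was at 3.06, 4.55 and 11.3 CPM in control and 41.6, 63.7 and 31.3 CPM under siRNA 2, a 7.24-fold mean difference, and was called higher, and the sum of the 3 genes differed by 0.92-fold. Both identifiers of MATR3, an RNA-binding protein of the nuclear matrix, differed from replicate to replicate in control, from 59.7 to 164 CPM in the first and from 229 to 330 CPM in the second, and summed to 390 to 393 CPM. Neither was called.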
